A study of Mus musculus with 8 samples.

Results

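Immediate early genes are described here in the mouse cochlear basilar membrane, the sheet on which the sensory hair cells sit. The 10 genes, Fos, Fosb, Jun, Junb, Egr1, Egr3, Ier2, Nr4a1, Dusp1 and Btg2, were chosen by name as genes that respond to activity and to dissection, and all 10 were found among the 78317 genes of the expression table. RNA came from mice at postnatal day 6, with 4 libraries titled hete, whose genotype is labelled WT, and 4 titled homo, labelled Dnajc17 cKO, a conditional knockout of a J-domain protein gene. The sources used here do not give the allele of the hete animals, the Cre that drives the deletion or the strain. Nothing says whether the libraries of a group come from different animals, and p-values therefore speak only of variation among these 8 libraries, possibly technical. All 10 hair cell markers searched were present, among them Myo7a at a mean of 17.5 TPM (transcripts per 1000000) in hete and 19.4 in homo and Pou4f3 at 17.3 and 16.1. Of the 10, 2 were higher and 8 lower in homo (median log2 fold change -0.15), 0 passed the test described below, and 3, Otof, Ocm and Myo15a, had an unadjusted p under 0.05, all lower. Over all genes in that test, 56.3% were higher in homo and 6.05% had an unadjusted p under 0.05 in either direction. The basilar membrane is a mixed tissue, in which fewer cells of a type and less RNA per cell cannot be told apart.

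Immediate early genes are switched on within minutes of a stimulus, without new protein synthesis, and their short-lived mRNAs then decay. Kinases of the MAP kinase cascade and calcium signalling act on transcription factors already bound at their promoters, among them SRF with its ternary complex partners and CREB, which binds the cyclic AMP response element. Neuronal firing, growth factors, mechanical injury and the handling of tissue all raise them, so their level in a dissected tissue can reflect its activity and the dissection alike.

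The promoters of 7 of the 10 genes are in the RefSeq promoter table (build GRCm38.p6, 250 bases before to 50 bases after the start). Of these, 6, all but Jun, hold the core of the cyclic AMP response element, TGACG on either strand, which is found in 20.8% of all 32851 promoters of that length in the table. The core lies inside the full palindromic element TGACGTCA, which is in the promoters of Btg2 and Dusp1 and in 1.79% of all. The EGR motif GCGNGGGCG is in those of Btg2, Fosb and Nr4a1 and in 5.55% of all. The AP-1 motif TGANTCA (7.81% of all) and the CArG box of SRF (1.63% of all) had no match in any of the 7 windows, and both strands were searched for each motif. Sites beyond these windows were not searched, and Egr1, Egr3 and Ier2 have no promoter in the table. The search therefore cannot say whether a gene lacks such a site. The stretches of 250 bases before the start are shown for 4 of the 6 genes with the core, with the cyclic AMP response element or its core in capitals. The stretches of Btg2, Fosb and Jun are not shown. A match is a run of letters and not a measured binding site.
Fos, chr12:85473640-85473889, plus strand: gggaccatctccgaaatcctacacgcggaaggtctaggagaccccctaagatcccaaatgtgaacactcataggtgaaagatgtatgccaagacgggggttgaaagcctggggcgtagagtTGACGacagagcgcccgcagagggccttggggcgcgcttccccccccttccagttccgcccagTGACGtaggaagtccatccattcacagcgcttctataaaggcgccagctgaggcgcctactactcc
Junb, chr8:84978749-84978998, minus strand: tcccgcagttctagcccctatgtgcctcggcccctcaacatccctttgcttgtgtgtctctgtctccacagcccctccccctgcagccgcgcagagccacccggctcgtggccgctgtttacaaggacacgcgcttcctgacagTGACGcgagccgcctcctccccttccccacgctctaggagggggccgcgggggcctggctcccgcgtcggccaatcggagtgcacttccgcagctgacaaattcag
Nr4a1, chr15:101266596-101266845, plus strand: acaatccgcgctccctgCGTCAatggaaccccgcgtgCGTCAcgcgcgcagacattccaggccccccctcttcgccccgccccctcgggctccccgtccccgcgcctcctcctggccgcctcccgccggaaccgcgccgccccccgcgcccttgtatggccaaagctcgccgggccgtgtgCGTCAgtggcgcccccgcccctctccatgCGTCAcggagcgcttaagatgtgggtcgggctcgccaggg
Dusp1, chr17:26508473-26508722, minus strand: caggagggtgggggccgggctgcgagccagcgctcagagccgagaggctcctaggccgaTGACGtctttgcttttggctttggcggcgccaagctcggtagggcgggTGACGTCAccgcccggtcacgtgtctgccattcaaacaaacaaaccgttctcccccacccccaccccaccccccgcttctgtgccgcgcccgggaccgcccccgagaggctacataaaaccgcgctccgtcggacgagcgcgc
Nr4a1 has 4 separate cores in this stretch, Fos has 2, Junb has 1, and Dusp1 has a full element and a further core. The genes also differ in the TATA box, searched as TATAAA, which lies at bases -33 to -28 of Fos. It is also at bases 1 to 6 of Junb, beyond the stretch shown, in neither of the other 2, and in 13.6% of all promoters.

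In the 8 libraries the 10 genes were expressed at low to moderate levels. TPM is scaled by transcript length and library, which allows levels of different genes to be set side by side. Ier2 was the highest at a mean of 42.5 TPM over the 8 libraries, above 78.3% of the 17811 genes tested, which had a median of 14.1 TPM. It was followed by Btg2 (20.8 TPM), Jun (18.2), Egr1 (13.3), Nr4a1 (10.5), Junb (10.4) and Dusp1 (8.95), and then by Fos (3.24), Egr3 (2.48) and Fosb (0.56). Neighbours in this order differed by less than the larger of their SDs over the 8 libraries for Btg2 and Jun, Egr1 and Nr4a1, Nr4a1 and Junb, and Junb and Dusp1. Fosb had a mean under 1 TPM and was the 1 gene of the 10 that did not pass the filter on low values. The coefficient of variation over the 8 libraries ranged from 4.95% for Ier2 to 29.8% for Egr3 among the 9 genes that passed, with a median of 16.4%, against 12.9% over all tested genes.

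**Figure D1:**
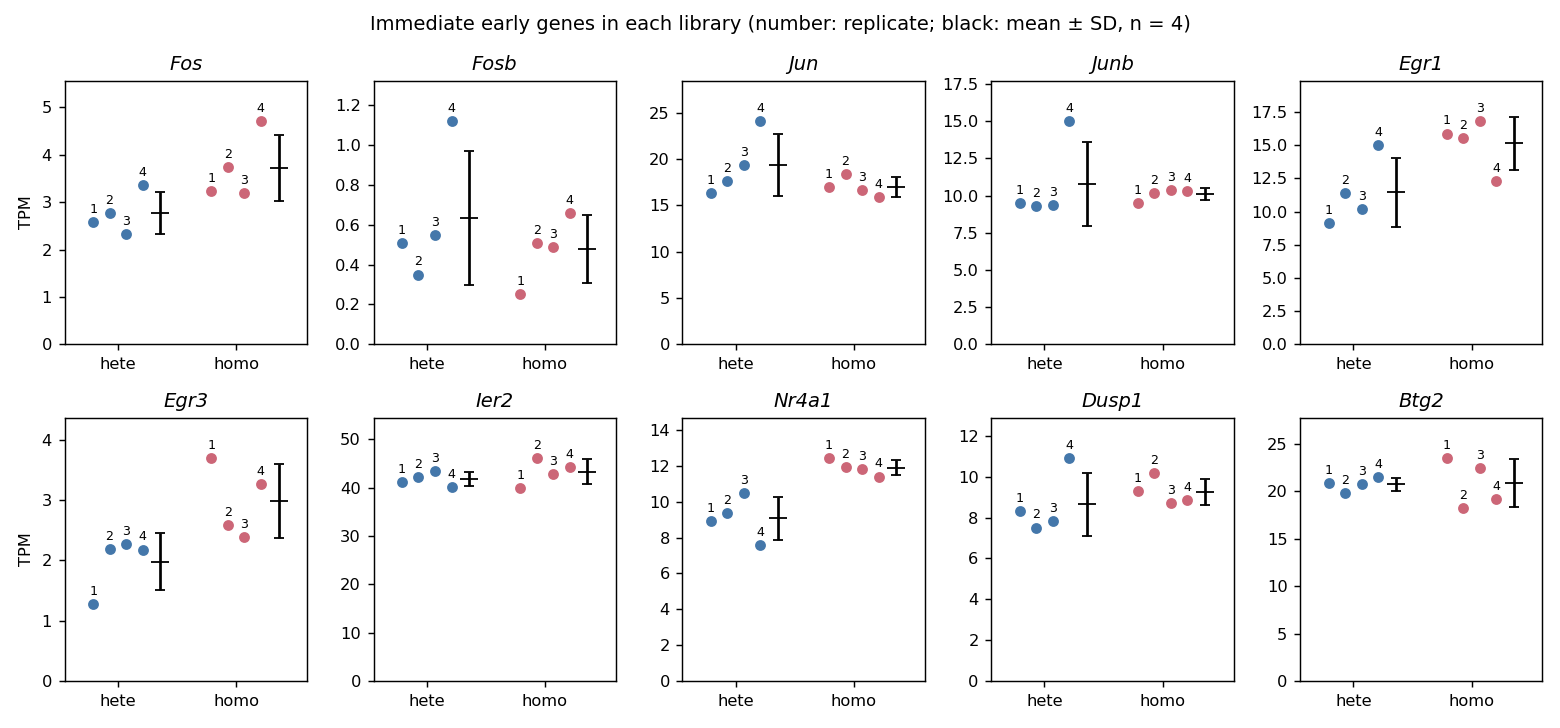
TPM of each of the 10 immediate early genes in 4 hete and 4 homo libraries, with points numbered by replicate and the mean ± SD of each group in black. Hete replicate 4 holds the highest value of Fosb, Jun, Junb and Dusp1 and the lowest of Nr4a1, while all 4 homo values of Egr3 and Nr4a1 lie above all 4 hete values.

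Setting homo against hete asks which transcripts differ with the Dnajc17 deletion. The 17811 genes averaging 1 TPM or more were fitted together by limma-trend on log2(TPM + 1), and a gene is called changed at an adjusted p (Benjamini-Hochberg) below 0.05. No immediate early gene changed, 0 of the 9 tested, where 2 of all tested genes did (0.0112%). At an unadjusted p under 0.05 there were 3 of 9, Egr1, Egr3 and Nr4a1, all higher in homo, beside 6.05% of all tested genes in either direction and 3.56% higher in homo. The log2 fold change was above 0 for 7 of 9, beside 56.3% of all tested genes, with a median of 0.10 beside 0.02, and for 6 of 9 after quantile normalization, where Btg2 stood at -0.02. The Dnajc17 transcript itself had means of 24.8 ± 1.91 TPM in the hete libraries and 26.5 ± 5.83 in the homo libraries (SD, n = 4 each), so its level does not check the labels. It measured 26.51, 25.45, 25.09 and 22.06 TPM in hete and 29.33, 27.65, 31.08 and 18.04 in homo, replicates 1 to 4 in order. Homo replicate 4 was thus below every hete library, and the other homo libraries were above them all.

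Nr4a1, which encodes the orphan nuclear receptor Nur77 (ENSMUSG00000023034, chromosome 15), measured 8.92, 9.39, 10.48 and 7.58 TPM in the hete libraries, replicates 1 to 4 in order, and 12.45, 11.96, 11.82 and 11.41 in the homo libraries. Every homo value exceeded every hete value, and the lowest value of all was in hete replicate 4. The homo over hete log2 fold change came to 0.36 with an SE of 0.10 and a 95% interval of 0.14 to 0.59 (adjusted p = 0.638 by limma-trend). It was the smallest unadjusted p of the 10 genes, and it did not pass the test over all genes. Groups that do not overlap were found for 2 of the 9 tested immediate early genes, Nr4a1 and Egr3, beside 3.99% of all tested genes in either direction and 2.58% with homo higher.

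Egr1 and Egr3 encode zinc finger transcription factors of the early growth response family, which link growth factor and calcium signals to later gene programs. Egr3 (ENSMUSG00000033730, chromosome 14) measured 1.27, 2.19, 2.27 and 2.18 TPM in the hete libraries and 3.70, 2.59, 2.38 and 3.27 in homo. The homo values were all higher, but homo replicate 3 stood only just above hete replicate 3. Its log2 fold change was 0.42 with an SE of 0.17 and a 95% interval of 0.04 to 0.81 (adjusted p = 0.785 by limma-trend), on a scale that understates the ratio of genes at such low levels. Egr1 (ENSMUSG00000038418, chromosome 18) had 9.10, 11.40, 10.22 and 15.04 TPM in hete and 15.88, 15.54, 16.81 and 12.29 in homo. The groups overlapped through hete replicate 4 and homo replicate 4, each of which stood with the other group. The log2 fold change was 0.39 with an SE of 0.15 and a 95% interval of 0.06 to 0.72 (adjusted p = 0.760 by limma-trend), and 0.52 without hete replicate 4 (adjusted p = 0.649).

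The 4 members of the AP-1 family, whose products pair as Fos-Jun and Jun-Jun dimers on DNA, did not share a direction. Fos (ENSMUSG00000021250, chromosome 12) had 2.59, 2.77, 2.32 and 3.37 TPM in hete and 3.23, 3.75, 3.20 and 4.71 in homo, with a log2 fold change of 0.32 (SE 0.15; limma-trend, adjusted p = 0.822). Only hete replicate 4 reached into the homo range, and homo replicate 4 was the highest. Jun (ENSMUSG00000052684, chromosome 4) had 16.34, 17.63, 19.41 and 24.10 TPM in hete and 16.99, 18.43, 16.63 and 15.95 in homo, a log2 fold change of -0.17 (SE 0.11; adjusted p = 0.874). The groups overlapped, and without hete replicate 4 the difference was -0.06. Junb (ENSMUSG00000052837, chromosome 8), often an antagonist of Jun, had 9.48, 9.32, 9.35 and 15.01 TPM in hete and 9.52, 10.20, 10.37 and 10.32 in homo. Hete replicate 4 stood alone above the 7 other libraries, and all 4 homo values were above the other 3 hete values. The log2 fold change was -0.06 (SE 0.14; adjusted p = 0.971) and turned to 0.10 without hete replicate 4. Fosb (ENSMUSG00000003545, chromosome 7) had 0.51, 0.35, 0.55 and 1.12 TPM in hete and 0.25, 0.51, 0.49 and 0.66 in homo, again highest in hete replicate 4. In the fit without a filter its log2 fold change was -0.13 (SE 0.17; adjusted p = 0.862).

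Dusp1, a nuclear phosphatase that switches MAP kinases off again, Ier2, a small nuclear protein, and Btg2, an antiproliferative cofactor of mRNA decay that is also a p53 target, had log2 fold changes of 0.10, 0.05 and 0.00. Dusp1 (ENSMUSG00000024190, chromosome 17) had 8.32, 7.51, 7.81 and 10.92 TPM in hete and 9.30, 10.16, 8.70 and 8.87 in homo. As for Junb, the 4 homo values lay between hete replicate 4 and the other 3 hete values. Its difference of 0.10 had an SE of 0.12 (adjusted p = 0.931 by limma-trend), and without hete replicate 4 it was 0.21. Without hete replicates 2 and 3 or homo replicate 2, left out 1 at a time, it was 0.04, 0.06 and 0.06. Ier2 (ENSMUSG00000053560, chromosome 8) had 41.21, 42.29, 43.39 and 40.19 TPM in hete and 39.95, 46.15, 42.83 and 44.30 in the homo libraries (log2 fold change 0.05, SE 0.06, 95% interval -0.09 to 0.19). The difference was 0.09 without homo replicate 1, 0.02 without homo replicate 2, 0.03 without hete replicate 4 and 0.02 after quantile normalization. Its highest and lowest values were both in homo libraries, and their ratio was 1.16. Btg2 (ENSMUSG00000020423, chromosome 1) had 20.90, 19.81, 20.75 and 21.54 TPM in hete and 23.54, 18.27, 22.47 and 19.19 in the homo libraries (log2 fold change 0.00, SE 0.09, 95% interval -0.20 to 0.20). Its homo values straddled the hete values, with 2 above and 2 below all of them.

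**Figure D2:**
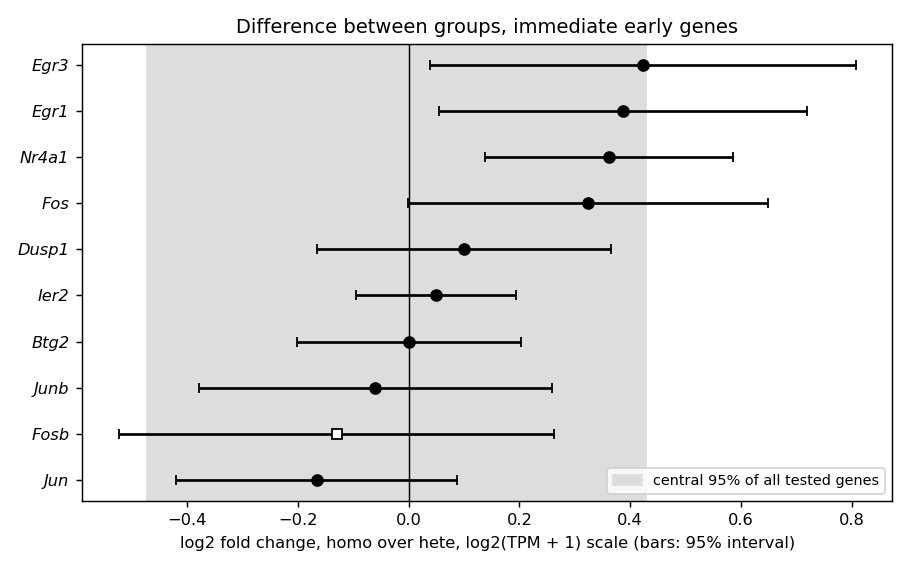
Log2 fold change of each immediate early gene, homo against hete, in log2(TPM + 1) units, with its 95% interval; the open square is Fosb, from the fit without a filter, and the grey band holds the central 95% of all tested genes (-0.47 to 0.43). The intervals of Egr3, Egr1 and Nr4a1 lie above 0, and every point lies within the grey band.

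Covariation across libraries was measured for the 45 pairs of these genes by Pearson r of log2(TPM + 1) over the 8 libraries. No pair passed a Benjamini-Hochberg adjustment over the 45 pairs, where the smallest adjusted p was 0.280 by r and 0.205 by Spearman rho (two-sided exact permutation test over 40320 pairings). The median r was 0.13, from -0.81 to 0.88, beside a median of 0.05 over all pairs of tested genes. After quantile normalization the median r of the 45 pairs was -0.02. The correlation was above 0 for 30 of 45 pairs, 66.7%, beside 54.7% of all pairs of tested genes, and for 22 of 45 after quantile normalization. It was at least 0.7 for 4 pairs, 8.89%, beside 4.19%, and at most -0.7 for 1 pair, 2.22%, beside 2.57%. The 2 sets are unlike, since Fosb did not pass the filter that all tested genes passed. Fosb is in 9 of the 45 pairs and in 2 of the 4 pairs at 0.7 or more. At an unadjusted exact p under 0.05 there were 3 pairs. Pairs share genes and libraries, so they are not independent of each other.

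Egr1 was the gene with r above 0 to all 9 others, from 0.00 to 0.66, but some of these signs were not stable. Its r was 0.00 with Ier2 and 0.04 with Fosb, where rho was -0.05 and -0.32. Without hete replicate 4 its r was -0.32 with Fosb and -0.08 with Jun, and without hete replicate 1 it was -0.20 with Ier2. Ier2 had the fewest positive r, with 4 of 9 above 0 and a median of -0.04. For each gene, the share of tested genes that reached an r of 0.7 with it ran from 2.22% for Ier2 to 7.92% for Jun, and neither Ier2 nor Egr1 reached 0.7 with another immediate early gene.

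The highest correlations joined Fosb, Jun, Junb and Dusp1, the 4 genes that were highest in hete replicate 4. Fosb and Junb had r = 0.88 (exact permutation p = 0.0187, adjusted p = 0.280) but rho = 0.46 (exact permutation p = 0.259, adjusted p = 0.845). Without hete replicate 4 and homo replicate 1, the libraries farthest from the median of Fosb, r was 0.50. Jun and Junb had r = 0.79 (exact permutation p = 0.101, adjusted p = 0.453) and rho = 0.00 (exact permutation p = 1, adjusted p = 1). Without hete replicates 3 and 4, the libraries farthest from the median of Jun, their r was -0.14. It was -0.38 without hete replicate 4 alone and 0.90 without hete replicate 3 alone, so the relation of Jun and Junb rested on hete replicate 4. Fosb and Jun, at r = 0.71 (exact permutation p = 0.0777, adjusted p = 0.453) and rho = 0.24 (exact permutation p = 0.567, adjusted p = 0.845), went to -0.24 without hete replicate 4 and homo replicate 1, and to -0.07 without hete replicate 4 alone. Junb and Dusp1 had r = 0.77 (exact permutation p = 0.00918, adjusted p = 0.280) and rho = 0.79 (exact permutation p = 0.0279, adjusted p = 0.413). Their r was 0.52 without hete replicates 2 and 4 and 0.64 without hete replicate 4 alone. Of the 4 relations with r of at least 0.7, Junb with Dusp1 was the 1 whose rho was as high as its r.

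Hete replicate 4 weighed on many other pairs. Leaving it out changed the sign of r in 16 of 45 pairs and moved r by more than 0.5 in 11, whereas each other library changed the sign of 0 to 6 pairs and moved at most 1 that far. Without it the median r was 0.24, beside 0.06 over all pairs of tested genes in the same 7 libraries, and r was above 0 for 30 of 45 pairs, beside 55.1%. It was at least 0.7 for 4 pairs, beside 5.82%, and at most -0.7 for 1, beside 3.6%. These were not the same 4 pairs. Egr1 with Nr4a1 went from 0.40 to 0.88, Egr3 with Nr4a1 from 0.67 to 0.84, Fos with Junb from 0.32 to 0.79, and Nr4a1 with Dusp1 from -0.09 to 0.74. Jun with Junb went from 0.79 to -0.38.

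**Figure D3:**
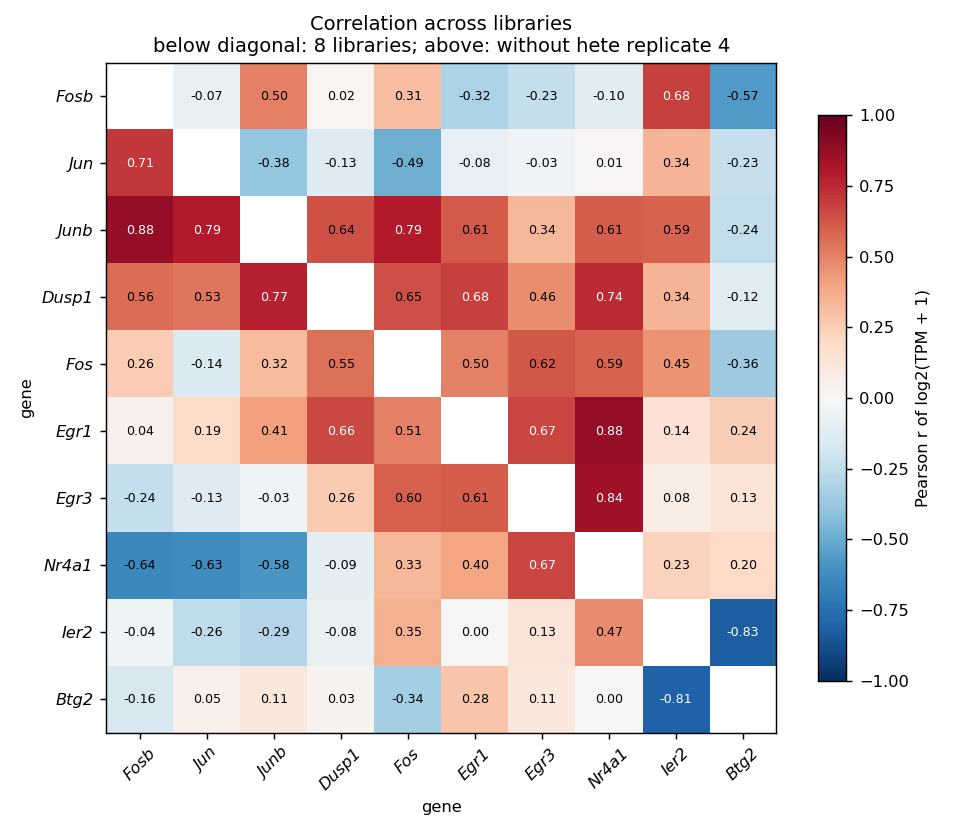
Pearson r of log2(TPM + 1) for every pair of immediate early genes, below the diagonal over 8 libraries and above it without hete replicate 4, with genes on both axes and red for positive and blue for negative values. Jun with Junb turns from 0.79 to -0.38 and Egr1 with Nr4a1 goes from 0.40 to 0.88, while Ier2 with Btg2 stays at -0.81 and -0.83.

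Egr1, Egr3 and Nr4a1, the genes with the smallest p between groups, correlated less once the group means were removed. The genes were all higher in homo, and this shared difference is part of their r over all libraries. Because they were picked for that difference, a fall was largely set in advance, and it is given as a description. Egr3 and Nr4a1 had r = 0.67 (exact permutation p = 0.0726, adjusted p = 0.453) and rho = 0.90 (exact permutation p = 0.00456, adjusted p = 0.205), and r = 0.57 without hete replicate 1 and homo replicate 1. On deviations from the mean of each group their r was 0.14 (exact permutation within groups, p = 0.675, adjusted p = 0.894). Egr1 and Nr4a1 had r = 0.40 and rho = 0.67 (exact permutation p = 0.323 and 0.0831, adjusted p = 0.773 and 0.623). Their r was 0.30 without hete replicates 1 and 3, the farthest from the median of Egr1, 0.80 without hete replicates 1 and 4, the farthest from that of Nr4a1, and -0.48 on deviations from group means. On that scale the 45 pairs had a median r of 0.11, with 29 above 0, beside 0.06 and 54.7% over all pairs of tested genes. There were 8 pairs at 0.7 or more, 17.8%, beside 5.93%, and 5 at -0.7 or less, 11.1%, beside 3.73%. The highest joined genes that peaked in hete replicate 4: Fosb with Junb (0.88), Junb with Dusp1 (0.88), Jun with Dusp1 (0.84) and Jun with Junb (0.83). Nr4a1, lowest in that library, had -0.73 with Fos, -0.76 with Fosb, -0.87 with Junb and -0.76 with Dusp1. The weight of this library on the counts on this scale was not tested, and Fosb lies under the filter. None of the 45 pairs passed the adjustment (smallest adjusted p = 0.273 in an exact permutation test within groups). With only 576 pairings within groups, a single pair could not have passed it on its own, whatever its r, so this says little.

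Ier2 and Btg2 ran opposite to each other. Their r was -0.81 (exact permutation p = 0.0168, adjusted p = 0.280) and their rho -0.81 (exact permutation p = 0.0218, adjusted p = 0.413), with -0.87 on deviations from group means and -0.83 without hete replicate 4. Without homo replicates 1 and 2, which held the extremes of both genes, r was -0.47. In homo replicate 1 Btg2 was at its highest and Ier2 at its lowest, and in homo replicate 2 the order was the reverse. Both genes varied little, within a ratio of 1.29 for Btg2 and 1.16 for Ier2.

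**Figure D4:**
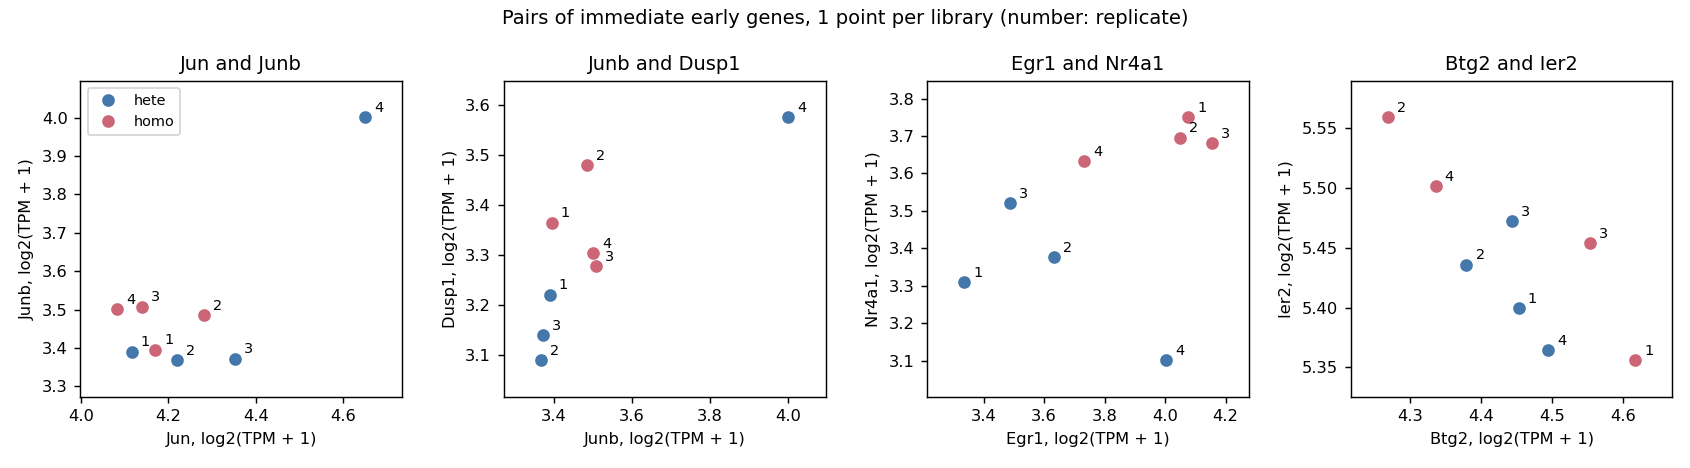
Log2(TPM + 1) of 4 pairs of immediate early genes, with 1 point per library, hete in blue and homo in red, numbered by replicate. Hete replicate 4 lies apart from the other libraries in the plots of Jun against Junb, Junb against Dusp1 and Egr1 against Nr4a1. Homo replicates 1 and 2 hold the ends of the relation of Btg2 and Ier2.

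Each gene's values were scaled to mean 0 and SD 1 and averaged over the 10 genes, as a description of the libraries. The average was -0.76, -0.57, -0.32 and 0.63 in the hete libraries and 0.18, 0.38, 0.20 and 0.26 in the homo libraries, in the order of their numbers. Hete replicate 4 was thus the highest of all libraries and the other 3 hete libraries were the lowest, with 1, 1 and 3 of 10 genes above their own median in hete replicates 1 to 3 and 7 in hete replicate 4. Among genes averaging 5 TPM or more, those whose pattern over the 8 libraries was most like this average were Arih2, an E3 ubiquitin ligase (r = 0.97), Fzd10, a Wnt receptor (0.96), Lrrc75a (0.96), Rxra, a retinoid receptor (0.96), and Spint1, a protease inhibitor of epithelia (0.96). They were picked for this likeness from all tested genes, and r is given as a description. Arih2 had 24.63, 26.60, 26.61 and 33.93 TPM in hete and 30.38, 30.20, 29.52 and 30.91 in homo.

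Hete replicate 4 also stood apart in genes outside the immediate early response. It held the highest value of 22.4% of all tested genes, against 7.22% to 18.8% in each other library. The summed TPM of 10 hair cell markers was 385 there, 197 to 261 in the other hete libraries and 137 to 210 in homo, and 7 of the 10 markers were highest in it. Among them, Ocm, the oncomodulin gene of outer hair cells, gave 278 TPM of the sum, beside 101 to 169 in the other hete libraries. In homo Ocm had 57.5 to 122 TPM, so most of the gap in the sum was that of this gene. Myo7a, a hair cell myosin, was at 14.1 TPM in hete replicate 4, its lowest value in any library, beside a hete mean of 17.5. Melanocyte and stria markers summed to 1801 TPM against 1227 to 1506 in the other 7 libraries, and 6 of 8 were highest in this library. Erythroid markers summed to 2467 TPM against 3113 to 5330, and all 5 tested were lowest there. Mitochondrial transcripts made up 10.4% of its TPM, and 8.69% to 10.1% in the others. No marker of these 3 lists was at 0 in any library. The part of tissue makeup in the values of Fosb, Jun, Junb and Dusp1 was not tested.

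Hete replicate 1, in contrast, held the lowest value of 26.6% of all tested genes and of 2 immediate early genes, Egr1 and Egr3. Neuron markers summed to 348 TPM in it and 413 to 647 in the other 7 libraries. Of the 11 marker lists, the summed TPM of 1, the granulocyte list, did not overlap between groups, as was so for Egr3 and Nr4a1. Granulocyte markers, 8 in number, summed to at most 8.49 TPM in any hete library and to 12.01 to 58.03 TPM in homo, with 4 of 4 tested genes higher in homo. Of the tested genes, S100a9 and Ngp did not overlap between groups, while S100a8 and Camp did. S100a9 alone gave 33.1 TPM of the sum in homo replicate 1. Elane, Mpo and Retnlg were at 0 in 4 or more libraries, and the means of Elane and Mpo were lower in homo. Supporting cell markers summed to 6107.5 to 7028 TPM in hete and 6903 to 7549 in homo, with 8 of 10 higher, and neuron markers to 348 to 512 and 413 to 647, with 11 of 12 higher, beside 56.3% of all tested genes. Hair cell markers were lower in homo for 8 of 10, erythroid markers for 5 of 5 tested and melanocyte and stria markers for 6 of 8. All 5 of these sums overlapped between groups. Single genes in them did not, namely Tecta, Tectb and Otog (supporting cell), Syt1 (neuron) and Myo15a (hair cell), beside 3.99% of all tested genes. The sums of Schwann cell and satellite glia markers (1572 to 2212.5 and 1512 to 2461 TPM), macrophage markers (421 to 464 and 411 to 504) and endothelial and mural markers (310 to 363 and 292 to 380) overlapped as well. Mesenchyme and fibrocyte markers (4164 to 4569 and 4084 to 5056 TPM) and bone and cartilage markers (2625 to 3468 and 2626 to 3238) did so too. Their part in the levels of the immediate early genes was not tested.

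The relatives of these genes were read from the same fit. As background, 56.3% of all tested genes were higher in homo and 3.99% did not overlap between groups. An unadjusted p under 0.05 by limma-trend was found for 6.05%. In the AP-1 family, 0 of 9 further tested members changed, 3 were higher and 6 lower (2 and 7 after quantile normalization; median log2 fold change -0.09), and none had an unadjusted p under 0.05. Fosl2, a Fos-related partner of Jun, had 3.56, 3.51, 3.36 and 4.88 TPM in hete and 2.81, 3.03, 3.24 and 2.86 in the homo libraries (limma-trend log2 fold change -0.27 ± 0.13 SE, adjusted p = 0.860). The groups did not overlap, and hete replicate 4 was again the highest. Jund, the most abundant gene of the family here, was at 125 ± 8.14 TPM in the hete libraries and 118 ± 13.2 in the homo libraries (SD, n = 4 each), while Batf stood at a log2 fold change of 0.31 (SE 0.20). Fosl1 was listed at 0 in all 8 libraries.

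Among other genes of the EGR and NR4A families and their cofactors, 0 of 5 changed, 4 were higher and 1 lower (3 and 2 after quantile normalization; median log2 fold change 0.19). Egr2, the myelination factor of Schwann cells, had 2.96, 6.18, 5.88 and 4.65 TPM in hete and 9.67, 7.03, 4.77 and 11.48 in the homo libraries (limma-trend log2 fold change 0.62 ± 0.26 SE, adjusted p = 0.814). The groups overlapped through homo replicate 3, which also held the lowest sum of Schwann cell and satellite glia markers, a list that includes Egr2. Nr4a3 averaged 2.61 ± 0.32 TPM in the hete group and 3.21 ± 0.20 in the homo group (SD, n = 4 each) with no overlap, a log2 fold change of 0.23 (SE 0.12). Nab2, a corepressor that binds EGR proteins and is itself induced by them, stood lower, at 22.9 ± 1.46 and 19.9 ± 2.29 TPM (± SD of 4 libraries), at a log2 fold change of -0.20 ± 0.09 SE. Egr4 was at 0 in 6 of 8 libraries.

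Of 31 tested further immediate early genes, 0 changed, 17 were higher and 14 lower (median log2 fold change 0.01, and -0.001 with 15 higher after quantile normalization), and 5 had an unadjusted p under 0.05, 3 higher and 2 lower. Beside this, 56.3% of all tested genes were higher and 6.05% had an unadjusted p under 0.05 by limma-trend. Sgk1, a serum- and glucocorticoid-induced kinase, had 108.31, 112.94, 115.23 and 111.27 TPM in hete and 139.81, 122.59, 133.77 and 130.85 in homo, without overlap (limma-trend log2 fold change 0.23 ± 0.06 SE, adjusted p = 0.581). Plk2, a polo-like kinase, averaged 29.5 ± 3.53 and 38.3 ± 3.66 TPM (± SD of 4 libraries), at a log2 fold change of 0.37 ± 0.10 SE (adjusted p = 0.623). Gadd45g, a stress sensor of the growth arrest family, averaged 11.99 ± 0.89 and 9.44 ± 1.25 TPM (± SD of 4 libraries), at a log2 fold change of -0.32 ± 0.10 SE (adjusted p = 0.692). The neuronal activity gene Arc averaged 0.77 and 0.80 TPM, and Npas4 was at 0 in 7 of 8 libraries, so both fell under the filter.

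**Figure D5:**
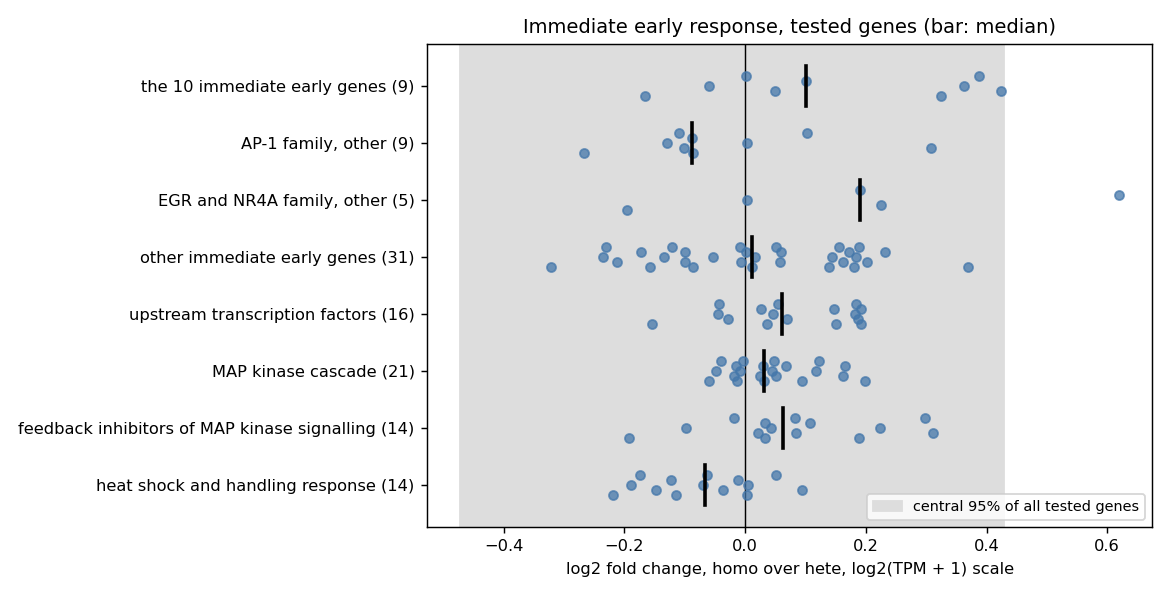
Log2 fold change, homo over hete, of each tested gene in the lists around the immediate early response, with the number of tested genes in brackets, a black bar at each list's median and a grey band for the central 95% of all tested genes. Medians lie between -0.09 for the other AP-1 genes and 0.19 for the other EGR and NR4A genes, and Egr2 is the point at 0.62.

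Upstream of these genes, 0 of 16 tested transcription factors and coactivators changed, and 12 were higher (median log2 fold change 0.06, and 0.03 after quantile normalization). For this and the next lists, the share of all tested genes that were higher was 56.3%. Crtc1 and Crtc2, calcium-responsive coactivators of CREB, stood at 0.19 (SE 0.07) and 0.19 (SE 0.08), and Elk1, a ternary complex partner of SRF, at 0.18 (SE 0.10). Of 21 genes of the MAP kinase cascade, 0 changed and 13 were higher (median 0.03, and 0.01 after quantile normalization), with the JNK activator Map2k4 at 0.20 (SE 0.08), the kinase Rps6ka1 at 0.17 (SE 0.08) and Nras at 0.16 (SE 0.09). Of 14 feedback inhibitors, 0 changed and 11 were higher (median 0.06). They include the MAP kinase phosphatases Dusp4 (6.11 ± 0.42 TPM in the hete group and 7.88 ± 1.30 in the homo group; SD, n = 4 each), Dusp10 (8.37 ± 0.40 and 10.6 ± 2.07 TPM) and Dusp6 (34.3 ± 4.92 and 39.9 ± 2.15 TPM). Dusp4 and Dusp10 did not overlap between groups, as was so for 3.99% of all tested genes. Their log2 fold changes were 0.31 (SE 0.12; limma-trend, adjusted p = 0.760) and 0.30 (SE 0.12; adjusted p = 0.787).

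Heat shock genes, which also respond to the handling of tissue, gave no call. Of 14 tested, 0 changed, 4 were higher and 10 lower, beside 56.3% of all tested genes higher (median log2 fold change -0.07 beside 0.02), and none had an unadjusted p under 0.05 by limma-trend. Hspa1a, the inducible Hsp70, had 4.95, 3.55, 4.06 and 3.78 TPM in hete and 4.06, 3.81, 3.13 and 2.85 in homo, with hete replicate 4 inside the range of the others. Dnajb1, its J-domain partner, was highest there at 32.54 TPM and averaged 28.6 ± 3.00 in the hete group (SD, n = 4) and 25.7 ± 2.49 in the homo group (n = 4). Chordc1 stood at a log2 fold change of -0.17 (SE 0.12). Of the 14 genes, 4 were highest and 3 lowest in hete replicate 4.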

How the data were processed

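The 8 basilar membrane libraries are stranded mRNA libraries made from 1 µg of total RNA, per the labels' protocols. The values used are TPM that the authors deposited, 1 column per library, each adding up to 1000000 within 1. The submitters' processing notes name fastp, HISAT2, StringTie, RSEM, DESeq2 and GRCm39, without versions or roles. Because TPM holds no depth, library depths are unknown and no count test was run. Deposited tables of gene ontology terms and splicing event numbers were not used.

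log2(TPM + 1) was fitted with limma 3.58.1 (R 4.3.3; eBayes with trend and robust options) with group as the only term, on genes averaging 1 TPM or more. The fit was tested on simulated data. Pair correlations used exact permutation tests (numpy 2.4.6). Alternatives were a pseudocount of 0.1, no filter, at least 5 TPM in 4 libraries, quantile normalization, the replicate number as a block, eBayes without the robust option and each library left out. For the pairs they were the same pseudocount, quantile normalization, libraries left out, linear TPM and deviations from group means. Chromosomes come from GENCODE M21, matched by gene ID for all 10 genes. Promoters come from RefSeq.

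The genes and lists were chosen with earlier results of these data known. Of each list around the response, the up to 3 tested genes with the smallest p are named. Genes listed at 0 or under the filter, Arc and the marker genes named were chosen after their values were seen. The genes most like the average are the 5 named genes with the highest r.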

Additional observations from a re-analysis of the deposited data

Results flagged for a closer look

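In 62 groups of 4 values, for the 10 immediate early genes and the genes named from the lists, a single library lay far from the other 3 in 4 cases; chance marks about 1 group in 20. Junb had 15.01 TPM in hete replicate 4, with a gap to the next library of 0.972 of the group's range. Fosl2 had 4.88 TPM in the same library (0.868 of the range). In hete replicate 1, Egr3 was at 1.27 TPM, its lowest value in any library (0.910). Nab2 was at 20.67 TPM there, the lowest of the hete libraries (0.966), though homo replicates 1 and 3 were lower, at 19.39 and 16.95 TPM.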

How the results depend on the processing

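No immediate early gene changed under any of the 14 alternatives, 8 of which left out 1 library each (Fosb was tested only without a filter), and no pair passed the adjustment under its 12 alternatives. On deviations from group means a single pair could not have passed on its own. Adjusted p ran from 0.599 to 0.991 for Nr4a1 and from 0.649 to 0.991 for Egr1. Of all tested genes, 2 changed, 1 with no filter and 1 to 5 with a library left out. With the replicate number as a block it was 1, and 0 immediate early genes, with an adjusted p of 0.885 for Nr4a1. Over all tested genes, deviations of same-numbered libraries correlated at -0.08 to 0.05. Hete replicate 3 correlated most with homo replicate 3, and hete replicates 1, 2 and 4 with homo replicates 2, 4 and 2. These values cannot settle whether the numbers pair the libraries, and a pairing in the immediate early genes alone was not tested. With a library left out, the log2 fold change of Junb ran from -0.115 to 0.096, above 0 only without hete replicate 4. That of Btg2 ran from -0.0568 to 0.0594, below 0 without hete replicate 2 (-0.020), homo replicate 1 (-0.0568) and homo replicate 3 (-0.0354), and was -0.022 with quantile normalization. Pairs with an unadjusted exact p under 0.05 numbered 2 to 6 with a library left out (6 without homo replicate 4). The median r of the pairs was -0.0191 after quantile normalization and 0.119 to 0.276 with a library left out, being 0.243 without hete replicate 4, 0.276 without homo replicate 1 and 0.215 without homo replicate 2. The cause of these shifts was not tested. Depth is unknown, so counting error at low levels, as for Fosb, cannot be given.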
